A study of Homo sapiens with 38 samples.

Results

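The 8 transfer RNAs (tRNAs) that human mitochondria transcribe from the light-strand promoter were examined: MT-TQ, MT-TA, MT-TN, MT-TC, MT-TY, MT-TS1, MT-TE and MT-TP. They were taken by their Ensembl identifiers from the deposited count table, and are 8 of its 22 mitochondrial tRNAs and of its 90127 features. The other 14 mitochondrial tRNAs lie on the opposite strand and are called heavy-strand tRNAs here. Small RNA libraries were made from KG1a and HL60, both human acute myeloid leukaemia cell lines with a wild-type genotype per the labels, and from large (lEV) and small (sEV) extracellular vesicles of each line. Cells had been grown in RPMI medium with 10% fetal bovine serum, and vesicles came from cells kept without serum for 2 days, so source and culture cannot be told apart. Each source was sequenced as total RNA and as rPAL RNA, in which sialic acid-bearing glycoRNA was labelled with biotin by periodate oxidation and aldehyde ligation and then enriched. The KG1a cell groups had 4 libraries and the other 10 groups had 3, which gives 38 libraries in 12 groups. Nothing in the labels ties the replicates of a group to separate cultures, and the p-values then cover only the spread between these libraries, which may be technical. Each line is a single cell line grown in culture, and the total RNA libraries served as the input control of the rPAL libraries.

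Mitochondrial DNA is transcribed from both strands into long precursors. The light-strand precursor carries these 8 tRNAs and a single mRNA, MT-ND6, a subunit of respiratory complex I, whereas the heavy-strand precursors carry the ribosomal RNAs and the other mRNAs and tRNAs. RNase P and the nuclease ELAC2 cut each tRNA out at its 5′ and 3′ ends, a CCA tail is added, and bases are modified before the tRNA is charged with its amino acid and used by mitochondrial ribosomes.

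The sequences of the 8 genes are shown because the results separate tRNAs that lie side by side on one precursor. They were read from the GENCODE release 29 transcripts (GRCh38), all on the minus strand of chromosome M, and run 5′ to 3′ without the CCA tail. They are listed in the order in which polymerase reaches them after the light-strand promoter. Capitals mark the anticodon, the triplet that pairs with the codon.
MT-TP: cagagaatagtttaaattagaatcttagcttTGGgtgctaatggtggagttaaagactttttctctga
MT-TE: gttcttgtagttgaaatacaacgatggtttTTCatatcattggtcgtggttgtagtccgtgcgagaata
MT-TS1: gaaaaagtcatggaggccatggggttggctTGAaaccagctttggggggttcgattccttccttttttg
MT-TY: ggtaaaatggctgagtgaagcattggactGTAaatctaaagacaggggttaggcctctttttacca
MT-TC: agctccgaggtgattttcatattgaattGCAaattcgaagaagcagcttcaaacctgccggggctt
MT-TN: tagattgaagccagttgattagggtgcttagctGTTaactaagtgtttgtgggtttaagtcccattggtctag
MT-TA: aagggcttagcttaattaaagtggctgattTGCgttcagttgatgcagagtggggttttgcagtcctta
MT-TQ: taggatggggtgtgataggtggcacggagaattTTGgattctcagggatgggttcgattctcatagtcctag

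MT-TP, the proline tRNA (ENSG00000210196), lies at chrM:15956-16023, 2 bases from MT-TT of the opposite strand. MT-TE, the glutamic acid tRNA (ENSG00000210194), lies at chrM:14674-14742 and directly precedes MT-ND6 on the precursor, with 0 bases between them. MT-TS1, the serine tRNA (ENSG00000210151), lies at chrM:7446-7514 and abuts the end of MT-CO1. MT-TY, the tyrosine tRNA (ENSG00000210144), at chrM:5826-5891, shares 1 base with MT-TC, the cysteine tRNA (ENSG00000210140), at chrM:5761-5826. MT-TN, the asparagine tRNA (ENSG00000210135), follows 31 bases on at chrM:5657-5729, and MT-TA, the alanine tRNA (ENSG00000210127), 1 base further at chrM:5587-5655. These 4 genes form a cluster that is well known because the origin of light-strand replication lies between MT-TC and MT-TN. MT-TQ, the glutamine tRNA (ENSG00000210107), lies at chrM:4329-4400 and overlaps MT-TI of the opposite strand by 3 bases.

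All 8 genes held more G than C, against 1 of the 14 heavy-strand tRNAs. Their GC content ran from 33.8% in MT-TP to 49.3% in MT-TS1 with a median of 42.95%, against a heavy-strand median of 35.75%. Their lengths ran from 66 to 73 bases. Identity between pairs of members ran from 41.1% for MT-TC with MT-TP to 59.5% for MT-TN with MT-TP, so none is a near copy of another. Nuclear copies of mitochondrial DNA could share reads with these genes. Among features with at least 500 counts, 0 followed a member to within 0.2 on the log2 scale in every library and 0 kept a constant ratio to one. Partial sharing of reads, or copies under 500 counts, would escape this check, so it cannot settle whether reads were shared. The strand setting of the counting is not given in the sources used here, so reads from opposite-strand transcripts over the same bases could not be told apart.

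Library totals ran from 5498168 to 14892937 counts for total RNA and from 2380745 to 15532758 for rPAL RNA. Levels below are CPM, each count scaled to the library total, and fold changes are edgeR log2 fold changes after TMM scaling, with their standard error (SE). A change was called at an adjusted p under 0.05 over all features tested. All 8 tRNAs had counts in every total RNA library. Of their values 1 of 24 was 0 in rPAL RNA of HL60 cells, 5 of 24 in that of KG1a lEV, 8 of 24 in that of KG1a sEV, 18 of 24 in that of HL60 lEV and 22 of 24 in that of HL60 sEV. Ribosomal RNA made up 10.3% and 13.7% of counts on average in total RNA of KG1a and HL60 cells and 54.8% and 50.9% in rPAL RNA of HL60 lEV and sEV. In KG1a sEV it made up 43.3%, 25.4% and 35.5% in the total RNA libraries and 62.9%, 63.9% and 58.5% in the rPAL libraries. Cytosolic tRNA ran from 7.38% to 12.3% of counts in total RNA of KG1a cells and from 38.7% to 77.0% in rPAL RNA. In HL60 cells it ran from 19.7% to 20.7% and from 62.0% to 74.1%. CPM values depend on these shares. CD34, a marker of primitive blasts, averaged 2.95 CPM in total RNA of KG1a cells and 0.0704 in that of HL60 cells. MPO, a granule gene of promyelocytes, averaged 0.0181 and 2.49 CPM in the same groups. CD34 was above MPO on average in 5 of the 6 KG1a groups, the exception being rPAL RNA of sEV (0.209 against 1.78 CPM), and MPO was above CD34 in all 6 HL60 groups. ELANE, another granule gene, was at 0 in HL60 cells. The summed level of 5 erythroid and serum markers (HBA1, HBA2, HBB, ALB and APOA1) ran from 0 to 0.672 CPM over the 38 libraries, and all 5 were at 0 in rPAL RNA of KG1a lEV, HL60 cells and HL60 sEV.

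In total RNA of cells MT-TN and MT-TE were far above the other 6 tRNAs. MT-TN had 332, 235, 348 and 74.6 CPM in KG1a and 504, 428 and 196 CPM in HL60. MT-TE had 163, 84.8, 155 and 65.4 CPM in KG1a and 98.4, 92.5 and 59.4 CPM in HL60. In both lines the library with the lowest MT-TN also had the lowest MT-TE. At the other end, MT-TC had 3.99, 4.44, 7.35 and 3.44 CPM in KG1a and 4.64, 2.35 and 4.05 CPM in HL60, and was the lowest on average in both lines. The remaining 5 tRNAs lay between 3.69 CPM (MT-TS1 in KG1a replicate 4) and 24.8 CPM (MT-TQ in HL60 replicate 1).

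Per length, the order in KG1a cells was MT-TN (3389 CPM per kilobase), MT-TE (1697), MT-TQ (186), MT-TA (154), MT-TP (131), MT-TS1 (122), MT-TY (112) and MT-TC (72.8). Only the step from MT-TE to MT-TQ had ranges over libraries that did not overlap. In HL60 cells the ranges did not overlap between MT-TN (5147 CPM per kilobase) and MT-TE (1209), between MT-TE and MT-TQ (308), or between MT-TY (174) and MT-TC at the bottom (55.8). The levels did not follow the order of transcription: MT-TN, the sixth in that order, was the most abundant, and MT-TP, the first tRNA after the promoter, was among the lower 6. Neighbours on the precursor also differed widely, since MT-TN counts exceeded MT-TC counts 83.3, 52.9, 47.4 and 21.7 times in the KG1a libraries and 109, 182 and 48.3 times in HL60.

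**Figure D1:**
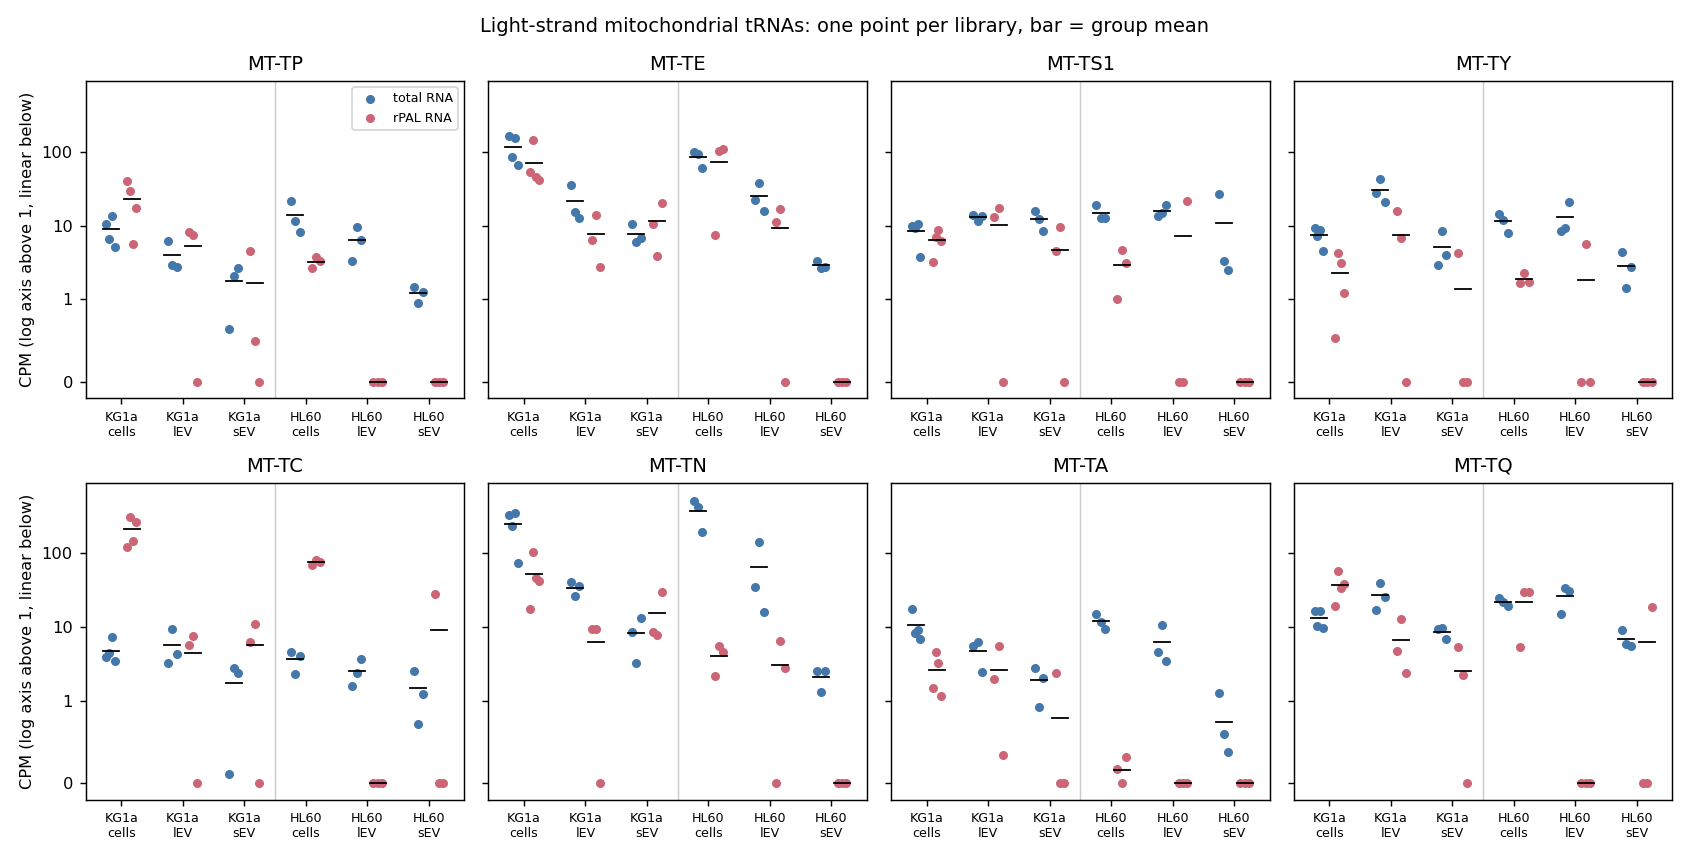
CPM of each light-strand mitochondrial tRNA (vertical axis, logarithmic above 1 and linear below) in the 6 sources (horizontal axis), for total RNA (blue) and rPAL RNA (red), with 1 point per library and a bar at the group mean. In cells the rPAL points of MT-TC lie between 69.3 and 311 CPM, above every total RNA point, whereas those of MT-TA and MT-TY lie below theirs.

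In KG1a cells, rPAL enrichment raised MT-TC and lowered its 3 neighbours MT-TN, MT-TA and MT-TY. MT-TC had 123, 311, 146 and 263 CPM in the rPAL libraries, a mean of 211 ± 90.5 (SD, n = 4) against 4.8 ± 1.75 in total RNA, which is a 43.9-fold difference of means with no overlap. Its log2 fold change was 5.32 ± 0.61 (SE, edgeR adjusted p = 0.00033). MT-TC was thus the least abundant of the 8 in total RNA and the most abundant on average in rPAL RNA.

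MT-TN, which reads asparagine codons, had 17.9, 103, 46.9 and 41.7 CPM in rPAL RNA of KG1a cells. Its log2 fold change was -2.54 ± 0.62 (SE, edgeR adjusted p = 0.013), although the highest rPAL library was above the lowest total RNA library. MT-TA had 1.52, 4.68, 3.33 and 1.16 CPM in rPAL RNA against 17.8, 8.47, 9.14 and 6.97 in total RNA, with no overlap and a log2 fold change of -2.37 ± 0.58 (adjusted p = 0.013). MT-TY had 0.532, 4.31, 3.13 and 1.22 CPM in rPAL RNA against 9.28, 7.15, 8.58 and 4.53 in total RNA, a log2 fold change of -2.06 ± 0.64 (adjusted p = 0.041) without overlap. In this line 1 tRNA rose and 3 fell of 8, where 8.89% of the 6592 features tested rose and 9.86% fell (18.8% called in all). The MT-TA call was lost without total RNA replicate 1 (adjusted p = 0.068), and the MT-TY call was lost when any total RNA library or rPAL replicate 3 or 4 was left out, with adjusted p from 0.053 to 0.14.

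The other 4 tRNAs did not pass the test in KG1a cells. MT-TQ had 19.5, 58.3, 34.2 and 37.9 CPM in rPAL RNA, above its 16.7, 10.5, 16.7 and 9.82 CPM in total RNA in every library, with a log2 fold change of 1.26 ± 0.51 (SE, edgeR adjusted p = 0.12). MT-TP had a log2 fold change of 1.21 ± 0.66 (adjusted p = 0.27), MT-TS1 of -0.62 ± 0.56 (adjusted p = 0.54) and MT-TE of -1.05 ± 0.51 (adjusted p = 0.21), each with overlapping libraries.

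In HL60 cells the same tRNA rose and the same 3 neighbours fell, and MT-TS1 and MT-TP fell too. MT-TC had 69.3, 81 and 77 CPM in rPAL RNA, a mean of 75.8 ± 5.95 (SD, n = 3) against 3.68 ± 1.19 in total RNA, a 20.6-fold difference of means. Its log2 fold change was 4.12 ± 0.41 (SE, edgeR adjusted p = 6.5e-05). MT-TN, the most abundant of the 8 in total RNA, had 2.19, 5.49 and 4.56 CPM in rPAL RNA, 92.1-fold below its total RNA mean, with a log2 fold change of -6.78 ± 0.55 (adjusted p = 2.2e-05).

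MT-TA had 0.169, 0 and 0.314 CPM in rPAL RNA of HL60 cells against 14.9, 11.6 and 9.51 in total RNA, a log2 fold change of -6.52 ± 0.82 (SE, edgeR adjusted p = 0.00029). MT-TY had 1.69, 2.28 and 1.73 CPM against 14.5, 11.9 and 8.04 (log2 fold change -2.85 ± 0.47, adjusted p = 0.0014). MT-TS1 had 1.01, 4.66 and 3.14 CPM against 19, 12.6 and 12.5 (-2.57 ± 0.57, adjusted p = 0.0066). For all 3 the highest rPAL library lay below the lowest total RNA library. MT-TP had 2.7, 3.73 and 3.3 CPM against 21.4, 11.4 and 8.25, again without overlap (-2.32 ± 0.50, adjusted p = 0.0052). The count was thus 1 higher and 5 lower of 8, against 20.6% higher and 18.0% lower (38.6% called) of the 6902 features tested, and these 6 calls held in all 6 fits that left out 1 library. MT-TA, with 3 rPAL counts, had passed the count filter through its total RNA alone. Lower was its only possible outcome, so its call adds nothing to the count.

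MT-TQ and MT-TE did not pass the test in HL60 cells, as in KG1a cells. MT-TQ had 5.4, 30.4 and 30.2 CPM in rPAL RNA around total RNA values of 24.8, 22.2 and 19.6 (log2 fold change -0.27 ± 0.60, edgeR adjusted p = 0.77). MT-TE had 7.42, 102 and 107 CPM in rPAL RNA (log2 fold change -0.47 ± 0.76, adjusted p = 0.69). For both, rPAL replicate 1 was far below the other two rPAL libraries.

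**Figure D2:**
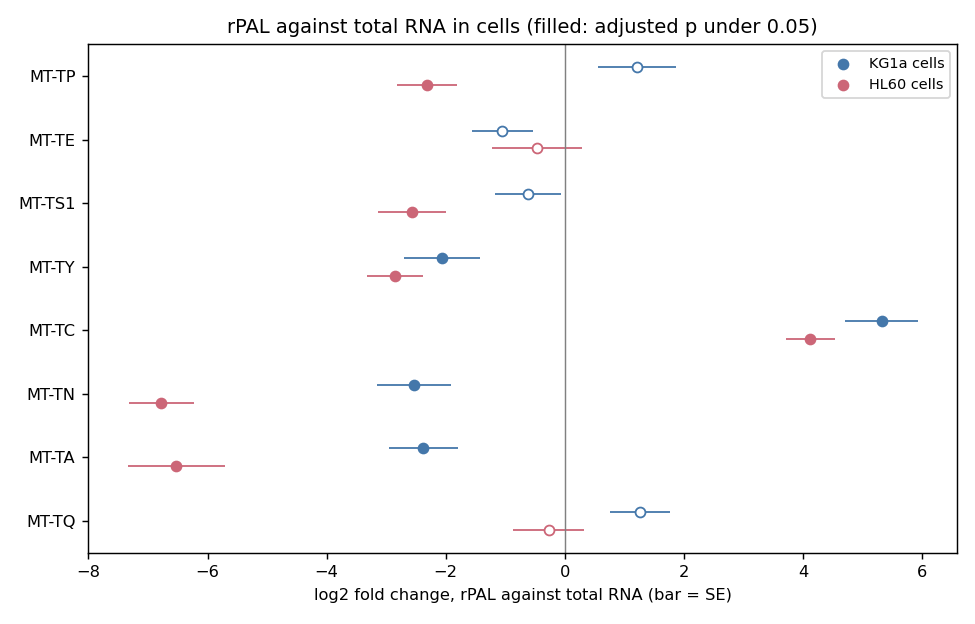
Log2 fold change of rPAL against total RNA (horizontal axis, edgeR, bars show the SE) for each tRNA in transcription order, in KG1a cells (blue) and HL60 cells (red), with filled points at an adjusted p under 0.05. MT-TC lies at 5.32 and 4.12, and MT-TY, MT-TN and MT-TA lie below 0 in both lines.

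The rPAL change of 3 tRNAs was lower in HL60 than in KG1a cells when the difference itself was tested with an interaction contrast. For MT-TN the rPAL to total ratio of means was 0.212 in KG1a and 0.0109 in HL60, 19.5 times lower (interaction log2 -4.42 ± 0.85, SE, edgeR adjusted p = 0.016). For MT-TA the ratio was 0.252 in KG1a, and in HL60, where it rests on 3 rPAL counts, 0.0114 from pooled counts (95% interval 0.00235 to 0.0335, exact binomial, counting error only), with an interaction adjusted p of 0.049. For MT-TP the ratios were 2.58 and 0.237, 10.9 times lower (adjusted p = 0.048). MT-TC did not pass this test (log2 -1.34 ± 0.70, adjusted p = 0.35), nor did MT-TY (-0.93 ± 0.88, adjusted p = 0.67) or MT-TS1 (-2.10 ± 0.87, adjusted p = 0.22). MT-TQ (-1.69 ± 0.83, adjusted p = 0.32) and MT-TE (0.40 ± 0.91, adjusted p = 0.91) did not pass either. The count was 3 lower of 8, where 1.18% of 11632 features were lower and 1.81% were called in all. The MT-TA and MT-TP calls held in only 3 of the 14 fits that left out 1 library, and that of MT-TN in 10 of 14, being lost without HL60 total RNA replicate 1 or 2 or HL60 rPAL replicate 1 or 3.

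These changes altered the makeup of the light-strand pool. In total RNA of KG1a cells MT-TN held 56.8% ± 9.46 (SD, n = 4) of the summed counts of the 8 tRNAs, MT-TE 29.3% ± 6.11 and MT-TC 1.3% ± 0.524. In rPAL RNA of these cells MT-TC held 52.2% ± 8.13, MT-TE 16.9% ± 5.36 and MT-TN 12.2% ± 4.38. In HL60 cells the share of MT-TN went from 68.6% ± 5.94 (SD, n = 3) in total RNA to 2.28% ± 0.239 in rPAL RNA, and that of MT-TC from 0.779% ± 0.452 to 48.7% ± 24.6. The count ratio of MT-TC to MT-TN, genes 31 bases apart, was 6.9, 3.01, 3.11 and 6.3 in the KG1a rPAL libraries and 31.6, 14.8 and 16.9 in those of HL60. In every rPAL library of cells MT-TC was above MT-TN, and in every total RNA library of cells it was below.

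**Figure D3:**
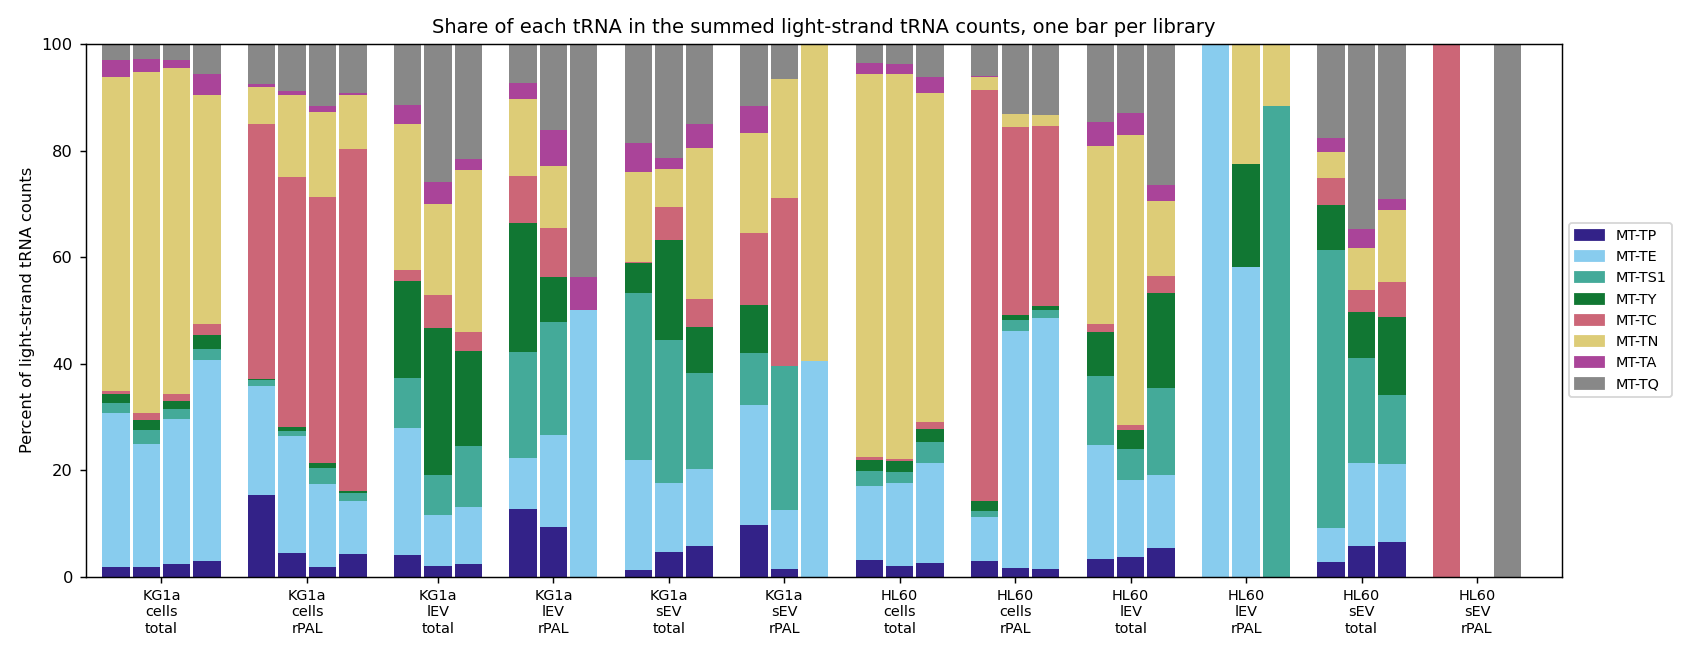
Share of each tRNA in the summed light-strand tRNA counts (vertical axis, percent), with 1 bar per library grouped by line, source and RNA kind. MT-TN and MT-TE fill most of the bars for total RNA of cells and MT-TC is the largest part of the KG1a cell rPAL bars, while an empty place marks the HL60 sEV rPAL library with 0 counts.

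Summed over the 8 tRNAs, the level was 418 ± 188 CPM (SD, n = 4) in total RNA and 406 ± 183 in rPAL RNA of KG1a cells, and 537 ± 198 (SD, n = 3) and 182 ± 80.1 in HL60 cells. Their share of all mitochondrial tRNA counts was 60.3% ± 7.85 in total RNA and 8.1% ± 1.49 in rPAL RNA of KG1a cells, and 59.5% ± 3.72 and 4.53% ± 0.995 in HL60 cells. The heavy-strand tRNA MT-TV, the valine tRNA, is part of the same total, and its share rose where the light-strand share fell. MT-TV held 20% of mitochondrial tRNA counts in total RNA and 84.3% in rPAL RNA of KG1a cells, and 9.09% and 90.5% in HL60 cells. With MT-TV left out, a denominator chosen after its values were seen, the light-strand share went from 75.2% ± 5.35 in total RNA to 51.6% ± 9.14 in rPAL RNA of KG1a cells. In HL60 cells it was 65.4% ± 2.76 in total RNA against 47.7% ± 10.3 in rPAL RNA. The total RNA and rPAL ranges still did not overlap in either line.

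**Figure D4:**
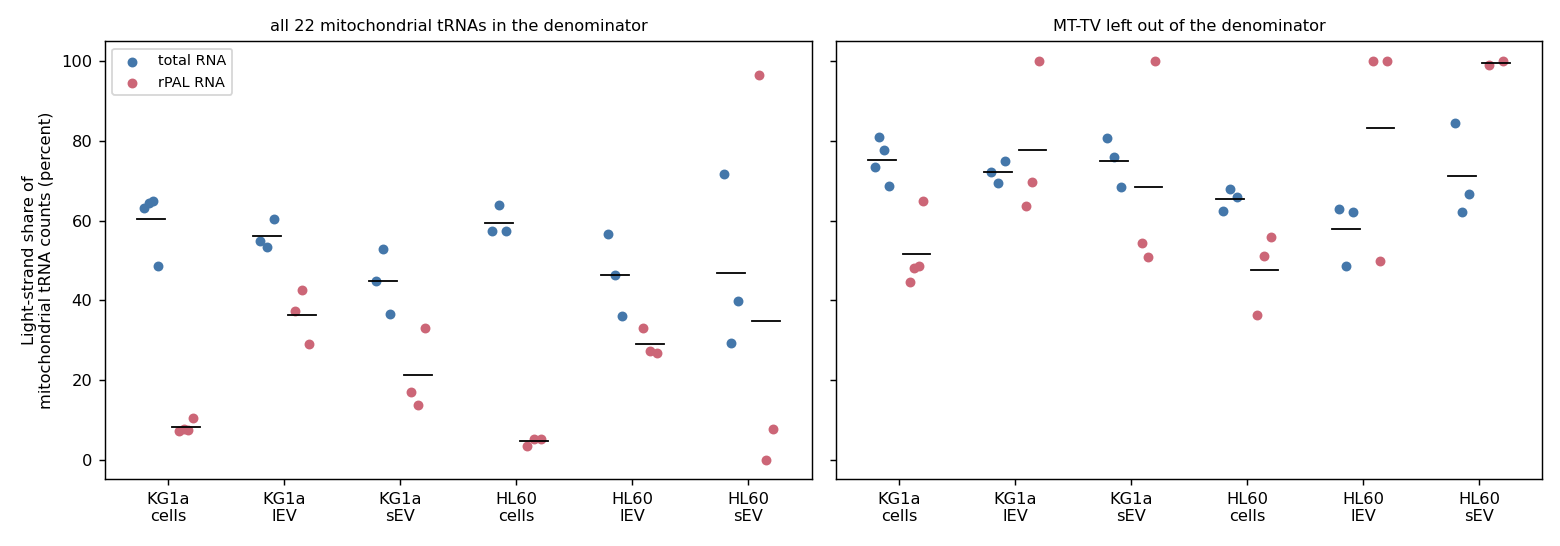
Light-strand share of mitochondrial tRNA counts (vertical axis, percent) in each library of the 6 sources, for total RNA (blue) and rPAL RNA (red), with a bar at the mean. In cells the rPAL libraries sit between 3.38% and 10.3% with all 22 tRNAs in the denominator (left) and between 36.2% and 65% without MT-TV (right).

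The 14 heavy-strand tRNAs also split between rises and falls. Of 13 tested in KG1a cells 4 rose and 2 fell, with a median log2 change of -0.31 against -0.83 for the 8 light-strand tRNAs and -0.04 for all features. Of 13 tested in HL60 cells 2 rose and 6 fell, with a median of -1.88 against -2.44 and 0.04. MT-TI, whose gene overlaps the end of MT-TQ on the other strand, rose in both lines (log2 3.04 ± 0.54, SE, edgeR adjusted p = 0.0025, and 1.89 ± 0.35, adjusted p = 0.0024), whereas MT-TQ passed the test in neither. MT-ND6, the mRNA of the same precursor, had 27.1 ± 5.82 CPM in total and 34.7 ± 21.6 in rPAL RNA of KG1a cells, and did not pass the test in KG1a (log2 0.02 ± 0.47, adjusted p = 0.99) or HL60 (-0.62 ± 0.46, adjusted p = 0.34).

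The tRNAs for asparagine and tyrosine, with those for aspartate and histidine on the heavy strand, carry queuosine, a modified guanine, at the first anticodon position. MT-TN and MT-TY fell in rPAL RNA of both lines. MT-TH, the histidine tRNA, rose in KG1a cells (log2 3.38 ± 0.55, SE, edgeR adjusted p = 0.0016) and was at -1.47 ± 0.64 in HL60 cells (adjusted p = 0.10). MT-TD, the aspartate tRNA, had too few counts to be tested in KG1a cells and was at 0.13 ± 0.73 in HL60 cells (adjusted p = 0.92). The 4 tRNAs of this class therefore did not move one way.

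Among nuclear genes, the mRNAs for the processing and transcription machinery of mitochondrial RNA were 19 features, of which 9 were tested in KG1a cells with 0 called (edgeR) and 11 in HL60 cells with 2 higher and 1 lower. Of the 10 mRNAs for the enzymes that charge these 8 tRNAs, or complete the charging of MT-TQ, 3 were tested in each line with 0 called in either. Of the 13 mitochondrial mRNAs 2 rose and 0 fell in KG1a cells, and 1 rose and 4 fell in HL60 cells.

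In vesicles of KG1a, no light-strand tRNA passed the test of rPAL against total RNA. In lEV the count was 0 of 8, and 0 at an unadjusted p under 0.05 with edgeR and 0 with DESeq2, where 3.16% of 5857 features were higher and 7.07% lower (10.2% called). MT-TC had 5.8, 7.54 and 0 CPM in rPAL RNA against 3.24, 9.46 and 4.38 in total RNA (log2 -0.26 ± 1.35, SE, adjusted p = 0.94). MT-TN had 9.43, 9.48 and 0 CPM against 40.9, 26.3 and 36, without overlap (-2.33 ± 1.28, adjusted p = 0.28). MT-TQ (-2.05 ± 1.08, adjusted p = 0.26) and MT-TY (-1.86 ± 1.30, adjusted p = 0.42) were also below total RNA without overlap. MT-TP alone had a log2 change above 0 (0.52 ± 1.37, adjusted p = 0.87). The third rPAL library held 16 light-strand counts of 2869426 in all, against 663 and 753 in the other two, and 5 of the 8 tRNAs were at 0 in it. Without that library the count was again 0.

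In KG1a sEV the count was also 0 of 8, with 0 at an unadjusted p under 0.05 (edgeR) and 0 by DESeq2, where 0.480% of 8128 features were higher and 6.13% lower (6.61% called). MT-TN had 8.71, 7.83 and 29.7 CPM in rPAL RNA against 8.57, 3.26 and 13.2 in total RNA, and MT-TC had 6.3, 11.1 and 0 against 0.107, 2.79 and 2.43. MT-TQ was below total RNA without overlap (log2 -1.96 ± 1.49, SE, edgeR adjusted p = 0.52), whereas MT-TN, MT-TC and MT-TE had log2 changes above 0. Replicate 3 had counts for only MT-TN and MT-TE. The standard errors of the log2 changes ran from 1.08 to 1.37 in lEV and from 1.33 to 1.57 in sEV, against 0.51 to 0.66 in KG1a cells. Whether the rPAL change differed between KG1a vesicles and cells was tested by interaction, with 0 of 8 called for lEV (0% of 10442 features) and 0 of 8 for sEV (0.0584% of 13700). In each case 2 of 8 had an unadjusted p under 0.05 with edgeR, and DESeq2 called 1. For MT-TC the interaction was -5.33 ± 1.34 (adjusted p = 0.10) in lEV and -3.46 ± 1.40 (adjusted p = 0.22) in sEV.

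In HL60 lEV 4 of the 8 light-strand tRNAs, MT-TQ, MT-TA, MT-TC and MT-TP, had 0 counts in all 3 rPAL libraries. The heavy-strand tRNAs did likewise, with 11 of 14 at 0 in these libraries. With 3 counts over the group taken as the floor, MT-TQ was at least 125-fold lower than in total RNA (15.3, 34 and 30.7 CPM, edgeR adjusted p = 0.0068). By the same floor MT-TA was at least 29.1-fold lower (adjusted p = 0.018), MT-TC at least 12-fold (adjusted p = 0.012) and MT-TP at least 30.1-fold (adjusted p = 0.017). These bounds cover counting error only.

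MT-TN fell as well in HL60 lEV, from 34.8, 143 and 16.2 CPM to 0, 6.47 and 2.81 (log2 -6.06 ± 1.75, SE, edgeR adjusted p = 0.030). The other 3 tRNAs did not pass the test, and each had at least 1 rPAL library at 0: MT-TE had 11, 16.6 and 0 CPM, MT-TY 0, 5.55 and 0, and MT-TS1 0, 0 and 21.5. The count was 5 lower of 8, beside 18.9% lower and 31.3% called of 3219 features. The 4 at 0 had passed the count filter through their total RNA alone, so lower was their only possible outcome and the count supports nothing further. Of the heavy-strand tRNAs 9 were tested, with 7 lower and 0 higher. Most of these were at 0 in rPAL RNA and could only be lower as well, so that tally supports nothing further either. The light-strand count fell to 1 when any 1 of the 3 total RNA libraries was left out, and the MT-TQ call held in all 6 fits that left out 1 library. Ribosomal RNA moved with this comparison, from 5.83% ± 0.969 (SD, n = 3) of counts in total RNA to 54.8% ± 11.5 in rPAL RNA. With ribosomal RNA left out of the library totals, the summed light-strand level was 170 ± 91.3 CPM in total RNA and 47.5 ± 19.6 CPM in rPAL RNA.

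By the interaction test 3 tRNAs had a lower rPAL change in HL60 lEV than in HL60 cells. All 3 were at 0 in every lEV rPAL library, so these calls rest on a group without counts and the count supports nothing further. MT-TA was at 0 there too and was not called (edgeR adjusted p = 0.30). MT-TC was 20.6-fold higher in rPAL RNA of cells and at 0 in that of lEV. With the floor of 3 counts its ratio was 247 times lower in lEV (edgeR adjusted p = 0.00031). For MT-TQ it was 123 times lower by that floor (adjusted p = 0.0012) and for MT-TP 7.12 times lower (adjusted p = 0.022). These values leave out the spread between libraries of the other groups. These 3 lower of 8 compare with 11.4% lower and 12.7% called of 8458 features. Of 13 heavy-strand tRNAs tested 6 were lower, with a median log2 of -5.78 against -2.55 for the 8 light-strand tRNAs. With 11 of the 14 heavy-strand tRNAs at 0 in lEV rPAL RNA, this tally supports nothing further. Of the 13 mitochondrial mRNAs 3 were lower. The calls of MT-TC and MT-TQ held in all 12 fits that left out 1 library, and that of MT-TP was lost without any 1 HL60 cell total RNA library or lEV total RNA replicate 2, with adjusted p up to 0.13 over the alternatives.

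In HL60 sEV only MT-TC and MT-TQ had rPAL counts, each in a single library. MT-TC had 110 counts (27.8 CPM) in replicate 1 and MT-TQ 45 counts (18.9 CPM) in replicate 3, and replicate 2 had 0 counts for all 8 among 3383583. Only 3 of the 8 passed the count filter. MT-TS1, at 26.7, 3.35 and 2.5 CPM in total RNA, was at least 35.2-fold lower in rPAL RNA by the floor of 3 counts (edgeR adjusted p = 0.039). Without total RNA replicate 1 this bound was 9.48-fold. MT-TE, at 3.27, 2.64 and 2.79 CPM, was at least 9.39-fold lower (adjusted p = 0.029), and MT-TQ did not pass (log2 -0.42 ± 1.91, SE, adjusted p = 0.91). Among the untested tRNAs at 0 in all rPAL libraries, MT-TN was at least 6.98-fold lower than in total RNA, MT-TY at least 9.28-fold, MT-TP at least 3.96-fold and MT-TA at least 2.44-fold. In this comparison 16.3% of 3619 features were lower and 18.8% called in all. MT-TS1 and MT-TE passed the filter through their total RNA alone, which left lower as their only possible outcome, so nothing is read from the 2 calls against that share. Both calls were lost in every fit that left out 1 library and could be made, leaving 0 called. By the interaction test MT-TE was also called lower than in HL60 cells, 8.14 times by the floor of 3 counts (edgeR adjusted p = 0.023). This call too rests on a group without counts, since MT-TE was at 0 in every sEV rPAL library. Such zeros did not fix the direction of the interaction. MT-TA and MT-TN, also at 0 there, had interactions of 1.18 and 0.14 on the log2 scale, neither called. The count was 1 lower of 8, where 12.8% of 8107 features were lower and 13.2% were called. The call held in 3 of 12 fits that left out 1 library.

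In total RNA, sEV held less of most light-strand tRNAs than cells did, and the largest falls were those of MT-TN and MT-TE. MT-TN had 8.57, 3.26 and 13.2 CPM in KG1a sEV and 2.55, 1.32 and 2.59 in HL60 sEV, log2 changes against cells of -6.07 ± 0.67 (SE, edgeR adjusted p = 0.00013) and -7.74 ± 0.57 (adjusted p = 0.00068). MT-TE had 10.5, 5.94 and 6.71 CPM in KG1a sEV and 3.27, 2.64 and 2.79 in HL60 sEV, changes of -4.99 ± 0.56 (adjusted p = 0.00014) and -5.12 ± 0.46 (adjusted p = 0.00068). For both tRNAs every sEV library was below every cell library of its line.

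MT-TA and MT-TP fell next, to 1.93 ± 0.936 and 1.8 ± 1.04 CPM (SD, n = 3) in KG1a sEV and to 0.752 ± 0.464 and 1.22 ± 0.249 in HL60 sEV. Their log2 changes were -3.59 ± 0.56 and -3.40 ± 0.57 (SE) in KG1a and -4.29 ± 0.64 and -3.74 ± 0.58 in HL60 (edgeR adjusted p from 0.0006 to 0.0032). MT-TQ fell by less, with -1.65 ± 0.47 in KG1a and -1.96 ± 0.46 in HL60 (both adjusted p = 0.014). MT-TY was at -1.49 ± 0.53 (adjusted p = 0.039) and -2.30 ± 0.56 (adjusted p = 0.017). MT-TC passed the test in KG1a (-2.47 ± 0.70, adjusted p = 0.014) and missed it in HL60 (-1.57 ± 0.54, adjusted p = 0.058). In KG1a the CPM means of these tRNAs differed by less than the fitted changes. From cells to sEV MT-TQ went from 13.4 to 8.72, MT-TY from 7.38 to 5.15 with overlapping libraries, and MT-TC from 4.8 to 1.78.

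MT-TS1 passed the test in neither line. It had 15.9, 12.2 and 8.34 CPM in KG1a sEV against 10, 9.21, 10.6 and 3.69 in the cells (log2 -0.46 ± 0.48, SE, edgeR adjusted p = 0.45). In HL60 sEV it had 26.7, 3.35 and 2.5 CPM against 19, 12.6 and 12.5 in the cells (-0.70 ± 0.85, adjusted p = 0.58), with replicate 1 far above the other two. Per kilobase MT-TS1 had the highest mean of the 8 in KG1a sEV, at 176 CPM, with a range that overlapped those of MT-TQ, MT-TN, MT-TE and MT-TY. In HL60 sEV its mean of 157 CPM per kilobase rested on replicate 1 (387, against 48.6 and 36.2) and was 42.4 without it, while MT-TQ had 126, 81.5 and 77.4 and was the higher of the pair in 2 of 3 libraries.

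The counts for sEV against cells were 0 higher and 7 lower of 8 in KG1a, against 23.0% higher and 22.1% lower (45.1% called) of 8725 features, and 0 higher and 6 lower of 8 in HL60, against 13.9% higher and 12.8% lower (26.7% called) of 7555. In HL60 MT-TA had 16 counts in sEV and passed the count filter through its cell libraries alone, so its call adds nothing to that count. Without TMM scaling 4 were called in KG1a, with the median of all features at 1.36 instead of 0.22 on the log2 scale. The calls of MT-TQ, MT-TY and MT-TC were those lost. The KG1a MT-TY call was lost in 5 of 7 fits that left out 1 library. The HL60 MT-TY call was lost without any 1 cell library and the MT-TQ call without cell replicate 1 or 2. The heavy-strand tRNAs fell too, 11 of 11 tested in KG1a and 13 of 13 in HL60, with medians of -3.98 and -5.19 beside -2.93 and -3.02 for the light-strand tRNAs. Several of them passed the count filter through their cell libraries alone, as MT-TD did in HL60 with 199 counts in cells and 2 in sEV. Lower was the only outcome open to those, so the heavy-strand tallies and medians support nothing further. Of the 13 mitochondrial mRNAs 13 fell in KG1a and 11 in HL60. In these bulk samples, a smaller number of vesicles or cells that hold a tRNA and less of it in each cannot be told apart.

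In large vesicles 5 of the 8 tRNAs were called against cells in KG1a and 0 in HL60. In KG1a lEV MT-TN (40.9, 26.3 and 36 CPM) and MT-TE (35.9, 15 and 12.7 CPM) fell, with log2 changes of -2.95 ± 0.50 (SE, edgeR adjusted p = 0.00016) and -2.57 ± 0.50 (adjusted p = 0.00051). MT-TY rose, with 27.1, 42.6 and 21.1 CPM against 9.28, 7.15, 8.58 and 4.53 in the cells (1.95 ± 0.40, adjusted p = 0.00077). These 3 calls held in all 7 fits that left out 1 library, and none of the 3 had overlapping libraries. MT-TC, which shares its end with MT-TY, had 3.24, 9.46 and 4.38 CPM and did not pass (0.18 ± 0.40, adjusted p = 0.72).

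MT-TA (-1.25 ± 0.46, SE, edgeR adjusted p = 0.031) and MT-TP (-1.27 ± 0.42, adjusted p = 0.020) also fell in KG1a lEV, with 5.54, 6.4 and 2.45 CPM and 6.09, 2.97 and 2.75 CPM. The MT-TA call was lost without cell replicate 1 or lEV replicate 3, with adjusted p up to 0.14, and that of MT-TP without cell replicate 1 or 3 or lEV replicate 2 or 3. MT-TQ (0.94 ± 0.40, adjusted p = 0.061) and MT-TS1 (0.53 ± 0.38, adjusted p = 0.26) missed the threshold. The count was 1 higher and 4 lower of 8, against 23.8% and 28.5% (52.3% called) of 7780 features. Of 13 heavy-strand tRNAs tested 1 was higher and 9 were lower. In HL60 lEV 0 of 8 were called, where 12.1% of 6527 features were higher and 15.2% lower (27.3% called), with 0 at an unadjusted p under 0.05 (edgeR) and 0 by DESeq2. Of 13 heavy-strand tRNAs tested in HL60 lEV 0 were higher and 5 were lower. MT-TN there had 34.8, 143 and 16.2 CPM (-1.47 ± 0.83, adjusted p = 0.20), of which replicate 2 was far above the other two, and every lEV library of MT-TN and MT-TE was nonetheless below every cell library. MT-TY had 8.47, 9.36 and 20.7 CPM (0.87 ± 0.49, adjusted p = 0.20). Whether the lEV changes differed between the lines was not tested.

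**Figure D5:**
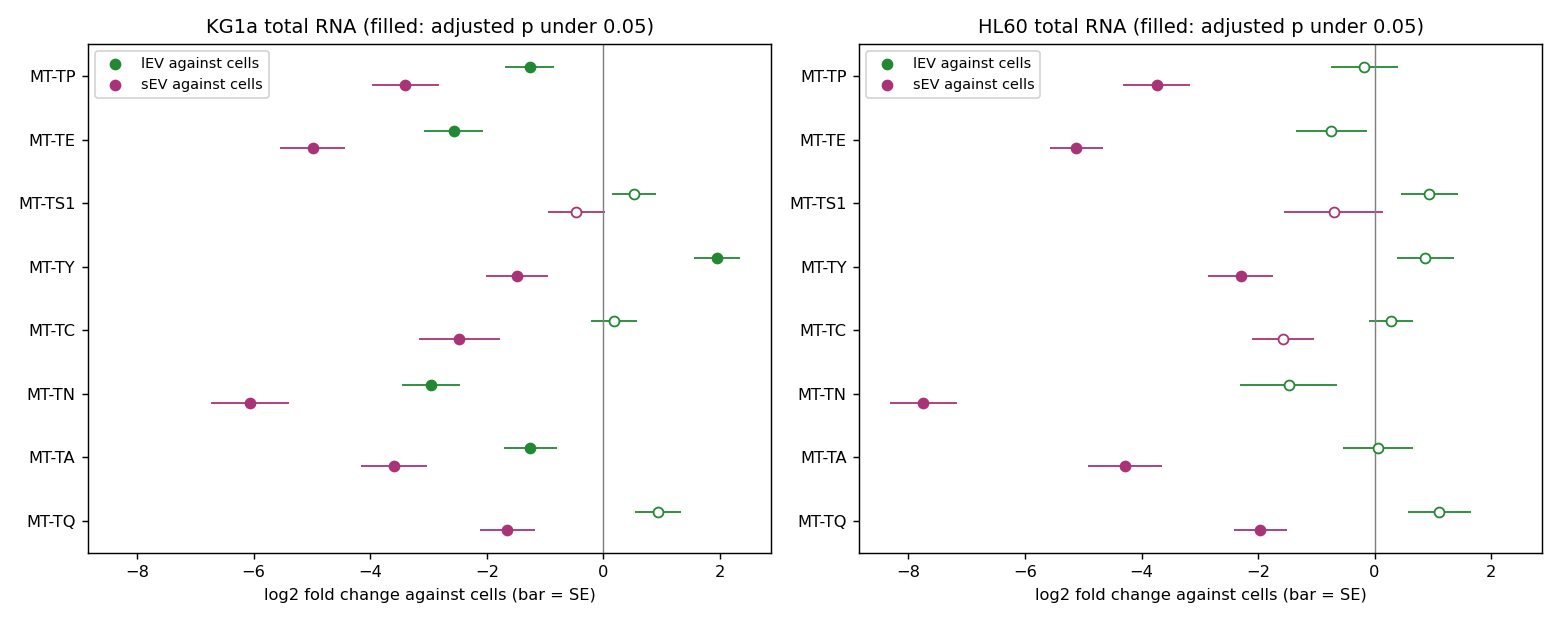
Log2 fold change in total RNA of lEV (green) and sEV (purple) against cells (horizontal axis, edgeR, bars show the SE) for each tRNA, in KG1a (left) and HL60 (right), with filled points at an adjusted p under 0.05. MT-TN lies lowest in sEV of both lines at -6.07 and -7.74, MT-TS1 is open in all 4 comparisons, and MT-TY lies at 1.95 in KG1a lEV.

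Between the 2 kinds of vesicle, 4 of 8 were lower in KG1a sEV than in lEV, against 3.41% higher and 1.90% lower (5.31% called) of 7682 features. These were MT-TY (log2 -3.29 ± 0.65, SE, edgeR adjusted p = 0.037), MT-TN (-2.99 ± 0.50, adjusted p = 0.034), MT-TQ (-2.43 ± 0.53, adjusted p = 0.039) and MT-TE (-2.30 ± 0.57, adjusted p = 0.048). Here same-numbered libraries deviated together, and with the replicate number as a block 6 were called, with MT-TA (adjusted p = 0.016) and MT-TC (adjusted p = 0.012) added. In HL60 6 of 8 were lower in sEV than in lEV, against 5.45% higher and 1.75% lower (7.21% called) of 5813 features, from -6.28 ± 1.11 for MT-TN (adjusted p = 0.015) to -3.06 ± 0.77 for MT-TQ (adjusted p = 0.033). Other mitochondrial RNAs were lower in sEV than in lEV too, with 6 of 10 heavy-strand tRNAs tested and 13 of 13 mRNAs in KG1a, and 7 of 10 and 11 of 13 in HL60. In HL60 MT-TA had 16 counts in sEV and passed the count filter through lEV alone, so its call supports nothing further. The same limit holds for heavy-strand tRNAs with few counts in sEV. MT-TS1 was again not called in either line (-0.85 ± 0.47, adjusted p = 0.30, and -1.63 ± 0.93, adjusted p = 0.32). In both lines 0 were called when any 1 lEV library was left out.

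In total RNA MT-TN held a smaller share of the pool in every vesicle library than in any cell library of its line. It held 24.9% ± 6.98 (SD, n = 3) of light-strand counts in KG1a lEV, 17.5% ± 10.6 in KG1a sEV, 34% ± 20.3 in HL60 lEV and 8.78% ± 4.38 in HL60 sEV. MT-TS1 held 2.07% ± 0.331 in KG1a cells and 25.3% ± 6.76 in KG1a sEV, and 2.93% ± 0.926 in HL60 cells and 28.4% ± 20.9 in HL60 sEV, where replicate 1 was highest at 52.1%. The light-strand share of mitochondrial tRNA counts in total RNA was 56.2% ± 3.64 and 44.8% ± 8.28 in KG1a lEV and sEV and 46.4% ± 10.3 and 46.9% ± 22 in those of HL60.

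Between the lines, total RNA of cells differed in 2 of 8 tRNAs, against 18.4% of 8655 features higher in HL60 and 21.5% lower (39.9% called). MT-TQ had 24.8, 22.2 and 19.6 CPM in HL60 against 16.7, 10.5, 16.7 and 9.82 in KG1a (log2 0.82 ± 0.32, SE, edgeR adjusted p = 0.047). MT-TS1 was 0.90 ± 0.35 higher on the log2 scale (adjusted p = 0.044). For both tRNAs every HL60 library was above every KG1a library, but each call held in only 2 of 7 fits that left out 1 library. In lEV 0 of 8 were called between the lines (7.04% of 6221 features higher and 9.07% lower, 16.1% called), although 4 had an unadjusted p under 0.05 with edgeR and DESeq2 called 3. In sEV 0 of 8 were called (0.606% of 8581 features higher and 0.769% lower, 1.38% called), with 0 at an unadjusted p under 0.05 (edgeR) and 0 by DESeq2.

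Across the 38 libraries, the feature whose log2(CPM + 1) was most like the mean of the 8 tRNAs was MT-TT, the threonine tRNA of the heavy strand (Pearson r = 0.890), among 606 features with a symbol and a mean of at least 10 CPM. It was followed by AC124068.2, a long noncoding RNA (r = 0.846), MT-TH (r = 0.846), RBMX, an RNA-binding protein gene (r = 0.826), and MT-ND6 (r = 0.823). These values describe libraries that share lines, sources and depth. Among the 28 pairs of members r ran from 0.033 to 0.872 over all libraries. Over the 19 total RNA libraries MT-TN with MT-TE (r = 0.966) and MT-TA with MT-TN (r = 0.954) had high r, and MT-TS1 with MT-TE had the lowest r of the 28 pairs (0.182).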

How the data were processed

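The authors deposited 1 table of raw counts, whole numbers for each annotated feature and library. The submitters' processing notes name Bowtie2 and the build GRCh38 (hg38). Versions, the counting program, its strand setting and its handling of reads with several hits are not given in the sources used here. Per the labels' protocols, RNA was extracted with RNAzol, adaptors were ligated and products were amplified and size-selected on a gel, so levels are those of ligatable small RNA without molecular identifiers. All 38 columns matched a labelled sample. The 8 members, the comparisons and the gene lists were chosen with earlier results of these data known.

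The tests were made on these counts in R 4.3.3 with edgeR 4.0.16 (TMM scaling, filterByExpr with a minimum count of 10, robust quasi-likelihood tests, Benjamini-Hochberg adjustment over all features tested, called under 0.05) in 20 comparisons, each on the groups it needs only. Differences in enrichment were interaction contrasts. The edgeR script was tested on simulated counts. All 8 members enter the counts of each comparison, and some are described singly. Heavy-strand tRNAs are given singly only as neighbours, as queuosine tRNAs, as MT-TV for its share, or among the 5 most alike features by Pearson r. CPM values use library totals and their ratios can differ from fitted fold changes. A group at 0 was set to 3 counts over the group. Alternatives were DESeq2 1.42.0, RLE scaling, no TMM scaling, no filter, a replicate block and leaving out each library. All same-numbered pairs deviated together in a single comparison, total RNA of KG1a sEV against lEV (correlations of 0.404, 0.125 and 0.268). Tables were made in Python 3.11.15 with pandas 2.3.3. No batch or date label was given.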

Additional observations from a re-analysis of the deposited data

Results flagged for a closer look

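Of the 2 kinds of flag used, the first compares the end library of a group of 4 with the rest of its group, and chance flags about 1 in 20 groups. In rPAL RNA of KG1a cells MT-TE had 145 CPM in replicate 2, far above 52.6, 45.4 and 41.1 in the other libraries. The light-strand share of mitochondrial tRNA counts was lowest in replicate 4 of KG1a cell total RNA, at 48.6%, and highest in replicate 4 of KG1a cell rPAL RNA, at 10.3%, each apart from the other 3 libraries.

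The second marks a difference between sources or lines in the rPAL change, by edgeR's interaction test. For HL60 lEV against HL60 cells the adjusted p was 0.00119 for MT-TQ, 0.000312 for MT-TC and 0.0222 for MT-TP. For HL60 sEV against HL60 cells it was 0.0231 for MT-TE. Each tRNA flagged in these vesicle comparisons was at 0 in every vesicle rPAL library, so these flags rest on groups without counts and support nothing further. For HL60 against KG1a cells the adjusted p was 0.0485 for MT-TA, 0.0164 for MT-TN and 0.0479 for MT-TP, all lower in HL60.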

How the results depend on the processing

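Of 54 calls of a tRNA in a comparison, 22 held under every alternative run and 24 in every fit that left out 1 library, and 0 changed direction. The counts of called tRNAs that moved by over 1.5 times were as follows, and the cause was not tested. Without TMM scaling the count went from 4 to 2 in rPAL against total RNA of KG1a cells, from 7 to 4 in KG1a sEV against cells, from 0 to 2 in HL60 lEV against cells, from 2 to 0 in HL60 against KG1a cells, from 0 to 1 in the KG1a lEV interaction and from 3 to 1 in that of HL60 against KG1a cells. Without the count filter it went to 2 in KG1a cells, from 5 to 2 in HL60 lEV and from 2 to 0 in HL60 sEV for rPAL, from 4 to 7 in KG1a sEV against lEV, to 1 in HL60 lEV against cells, to 0 between the lines in cells and to 1 in the interaction between the lines. DESeq2 called 7 in KG1a sEV against lEV, 3 between the lines in lEV, 1 in each KG1a interaction and 0 in the HL60 sEV interaction. RLE scaling gave 0 in the HL60 sEV interaction and 1 in that between the lines.

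With the replicate block the count was 2 in KG1a cells, 3 in HL60 lEV and 0 in HL60 sEV for rPAL, 1 in HL60 lEV against cells, 0 between the lines in cells, 1 in the interaction between the lines and 6 in KG1a sEV against lEV. Replicate numbers paired the libraries only in the last of these.

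Leaving out 1 library gave 2 to 4 calls in KG1a cells, 0 to 0 in KG1a lEV and sEV, 6 to 6 in HL60 cells, 1 to 6 in HL60 lEV and 0 to 0 in HL60 sEV for rPAL. In total RNA it gave 3 to 6 and 6 to 7 in KG1a lEV and sEV against cells, 0 to 5 in KG1a sEV against lEV, and 0 to 1, 4 to 8 and 0 to 6 in the same comparisons of HL60. Between the lines it gave 0 to 3 in cells, 0 to 1 in lEV and 0 to 0 in sEV. For the interactions it gave 0 to 0 in KG1a lEV and sEV, 2 to 4 in HL60 lEV, 0 to 2 in HL60 sEV and 0 to 3 between the lines. Every group kept at least 2 libraries. TMM scaling moved the median of all features from 1.54 to 0.08 in HL60 lEV rPAL and from -0.62 to 0.16 in HL60 lEV against cells (log2). Depth limits the rPAL vesicle values, where 3 counts correspond to between 0.295 and 1.26 CPM in a library.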
